A study of Mus musculus with 7 samples.

Results

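Reads of the MYC transcription factor network and of Pvt1, the long noncoding RNA gene next to Myc, were followed in a read table from a study of RNA bound to Ezh2 in nuclei of mouse embryonic stem (ES) cells. The 9 genes were listed by name: Myc, Mycn and Mycl, their partner Max, the Max-binding repressors Mga, Mxd1, Mxi1 and Mnt, and Pvt1. They are 9 of 55411 annotated nuclear genes, and 8 of them code for protein. The study used RNA immunoprecipitation sequencing (RIP-seq), in which an antibody draws a protein and its bound RNA from a lysate. Untreated ES cells were grown with LIF, a cytokine that keeps them undifferentiated, and nuclear lysate was incubated with anti-Ezh2 antibody or with IgG. Wild-type cells of strain 129X(M.castaneusX129) gave 5 Ezh2 libraries and 1 IgG library, and Ezh2 null cells of strain M.musculus gave 1 Ezh2 library. The 5 comprise an original library, 1 technical and 1 biological replicate of it, and 2 labelled as deeper sequencing, over 2 lanes each. Of these 2 deeper ones 1 is labelled a biological replicate, and their titles do not name the library that was sequenced.

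All values come from 1 deposited table of distinct read sequences with their counts, 34072479 reads in all, and no label ties it to any library. Its file name is no label and was not used to assign it, so which library or libraries it holds is not known here. Levels are therefore levels in this table, without replicates, and none is an enrichment over IgG or over Ezh2 null cells. Each value carries an exact 95% interval, Poisson for counts and Clopper-Pearson for shares, which covers counting error only since copies made by PCR look the same as separate molecules. Of 31529044 reads long enough to search, 36.06% lay on 1 gene, 11.35% on several and 52.59% on no annotated transcript. Introns were not searched, apart from those inside annotated retained-intron isoforms. ES cell markers were present, with at least 50 sense reads (reads of RNA from the gene's own strand) on 8 of 10 and from 6 to 4569 reads, and fibroblast markers reached that minimum in 8 of 8, from 327 to 5268 reads. None of either list was at 0, and of all nuclear coding genes 29.1% reached this minimum. Primitive endoderm markers reached it in 1 of 6, with Gata6 and Sox7 at 0, and neural markers in 1 of 5. The part of fibroblast RNA in the levels below was not tested, and fewer cells of a type cannot be told apart from less RNA per cell.

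MYC, MYCN and MYCL are basic helix-loop-helix leucine zipper proteins that bind E-box DNA as dimers with MAX and activate genes of growth and ribosome production. The MXD proteins, MXI1, MNT and MGA also dimerise with MAX, compete for the same sites and recruit repressors. MGA and MAX are moreover subunits of PRC1.6, a Polycomb complex that keeps germ cell genes silent in ES cells. Pvt1 is transcribed from the same strand as Myc and lies downstream of it, in a region that is often amplified together with MYC in tumours. Ezh2 is the histone H3 lysine 27 methyltransferase of PRC2, the other main Polycomb complex.

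Mga had by far the most reads, and Mycn was the MYC gene with most reads, while Myc was close to the limit of detection. The members together had 1960 sense reads, of which Mga took 66.17%. Their median level was 0.466 RPKM (sense reads per 1000000 searched reads and per kb of the gene's exons). The median over all nuclear genes was 0, over those with any sense read 0.1705 RPKM, and over coding genes 0.0856 RPKM. At least 50 sense reads were found for 6 members, Mga, Pvt1, Mycn, Max, Mxi1 and Mnt. Of all nuclear genes 12.6% reached this minimum, of coding genes 29.1% and of lincRNA genes 2.89%. Reads repeat few sequences: when each distinct sequence was counted as 1, only Mga and Mycn kept 50, against 3244 of the nuclear genes.

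By RPKM the order was Mga, Mycn, Max, Pvt1, Mnt, Mxi1, Myc, Mycl and Mxd1. Mga stood 1.601-fold above Mycn (interval 1.37 to 1.89), and Mycn 1.52-fold above Max (1.201 to 1.93). Max and Pvt1 did not differ beyond counting error (ratio 1.215, 0.964 to 1.53), nor did Mnt and Mxi1 (1.25, 0.894 to 1.75). With no mismatch allowed Max had 0.970 RPKM and Pvt1 0.653, and no interval of their ratio was computed there. Below a gap of 4.55-fold between Mxi1 and Myc (2.11 to 11.7), the ratios of Myc to Mycl and of Mycl to Mxd1 had intervals that included 1, while Myc stood 6.07-fold above Mxd1 (1.39 to 36.4). The order changed with the length of the reads, as described below.

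**Figure D1:**
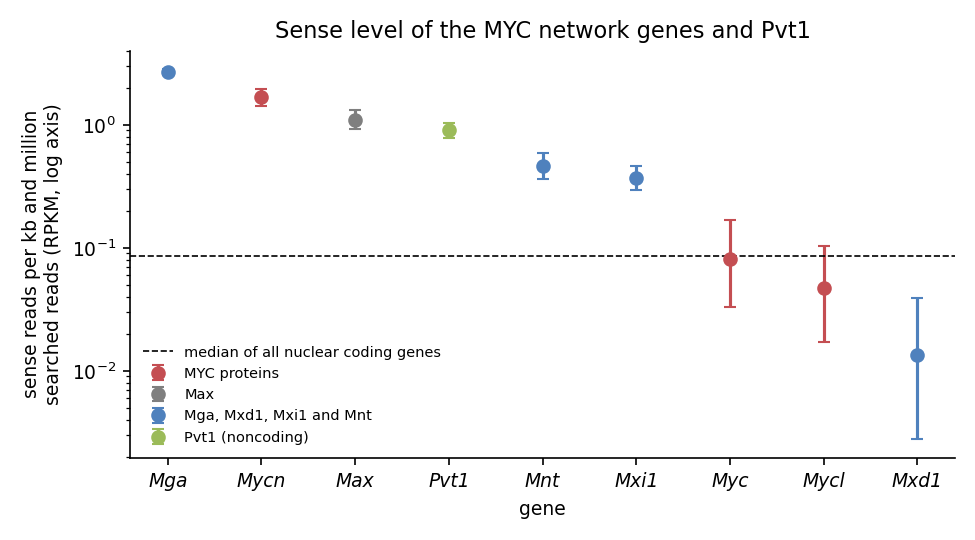
Sense level of the 9 genes in RPKM on a log axis, coloured by role; points are levels and bars 95% Poisson intervals. Mga, Mycn and Max lie above 1 RPKM, Pvt1, Mnt and Mxi1 between 0.3719 and 0.9067, and Myc, Mycl and Mxd1 below the dashed median of all nuclear coding genes at 0.0856.

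Mycn, the MYC gene that dominates in many neural and embryonic progenitors, lies at chr12:12936093-12941914 on the minus strand (GENCODE M21, GRCm38, as for all coordinates here). It had 174 sense reads (149 to 202) or 1.675 RPKM (1.435 to 1.943), which ranks 2062 of 21938 coding genes. These reads were 93.05% of the 187 on Myc, Mycn and Mycl together. Its level per length was 20.5-fold that of Myc (9.74 to 51.7) and 35.5-fold that of Mycl (16 to 98.2). Over distinct sequences the levels were 3.16 RPKM for Mycn, 0.407 for Myc and 0.117 for Mycl.

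Mycn reads lay mostly in the last exon, where 151 of the 174 (86.8%) began, and 136 (78.2%, 71.3 to 84.1) lay in coding sequence. Over all nuclear coding genes 79.1% of sense reads did so. Reads here are the reverse complement of the RNA, so each read starts at a base of the RNA and runs from there towards its 5′ end. The start position is counted at the first matched base, after the 6 leading bases of the read, which were left out of the matching. All 6 were the reference bases in 53.5% (Mga) to 76.5% (Mnt) of the sense reads of the members with at least 50. Sense reads of Mycn began at 32 positions, and the highest of them took 61 reads (35.1%). The 2 positions with most reads are shown. Each line gives the RNA strand 5′ to 3′ with T for U, and the capital marks the start position, at which 61 and 18 reads began.
Mycn chr12:12937362-12937391 minus: cctacgtggagagcgaggacgcgcccccgC
Mycn chr12:12937313-12937342 minus: ggcttctccacgccccctcaaaagtgttgT
Both windows lie in coding sequence. The 61 reads had 13 distinct sequences and 4 different runs of 6 leading bases. Bases close to that position were also starts: 12937365 had 6 reads, 12937363 and 12937368 5 each and 12937361 4. Position 12937312, beside the second one shown, had 7. The 32 positions are thus not all separate places along the RNA.

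Myc, the founding member of the family, lies at chr15:61985391-61990374 on the plus strand. It had 7 sense reads (2.81 to 14.4), a level of 0.0817 RPKM (0.03285 to 0.168) that ranks 11097 among coding genes. None of the 7 lay in coding sequence: all were in the 5′ untranslated region, at 5 positions, 5 reads in the first exon and 2 in the second exon block. All 7 were reads of 36 bases and none of 40, which allows up to 0.121 per 1000000 40-base reads. Every 34-base window of Myc is found in this gene alone among annotated transcripts. The highest position held 3 reads, each with other leading bases, and is shown because all 3 differ from the reference at 1 base. The capital marks that base, T159G as counted from 1 at the 5′ end of Myc isoform 201. It is the last matched base of each of these reads.
Myc chr15:61985549-61985578 plus: Tgactcgctgtagtaattccagcgagagac
Antisense reads of Myc numbered 4, all in the third exon block, on coding sequence. With 7 against 4 reads the antisense share was 36.4% (10.9 to 69.2), which leaves the strand balance unresolved at this depth.

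Mycl, the family member first found in lung cancer, had 6 sense reads (2.20 to 13.1) at chr4:122995652-123002485 on the plus strand, a level of 0.0471 RPKM (0.0173 to 0.103). Of the 6, 5 began at 1 position in coding sequence. Only 1 of the 6 reads had no other gene within 1 further mismatch, and 36 more reads, of either strand, matched Mycl and other genes equally well and were not counted. With all placements counted the level was 0.314 RPKM, and with the stricter match 0.00786 RPKM. Mycl also had 6 antisense reads, all at 1 position, so that its level and strand rest on 3 positions in all.

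Max, the obligate partner of the whole network, lies at chr12:76937269-76962201 on the minus strand. It had 125 sense reads (104 to 149) or 1.10 RPKM (0.917 to 1.31), rank 2922 of the coding genes. Its reads lay in another part of the transcript than those of Mycn: 96 (76.8%) were in the 3′ untranslated region and 17 (13.6%, 8.13 to 20.9) in coding sequence, which makes up 24.7% of isoform 202. Of the 125, 79 (63.2%) began within 500 bases of the 3′ end of that isoform. The highest position, with 39 reads of 8 distinct sequences, lay 473 bases before that end and is shown with the start position in capitals.
Max chr12:76937742-76937771 minus: ctgctactgaaatttgaatctgaatgaaaT
No sense read of Max crossed an exon junction, 0 of 125, which by the limit of 3 counts allows a share of up to 2.40%. Of the 34-base windows of isoform 202, 6.60% cross one. The limit takes the 125 reads as separate, but they began at 25 positions with 46 distinct sequences. It therefore cannot show that junction reads were fewer than the windows give. Of the genes with at least 50 sense reads and a spliced isoform, 30.8% had no such read.

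Among the 26 antisense reads of Max, 16 did cross a junction. They all began at position 76939449 and had 3 distinct sequences, and they were the complement of a splice found in Max isoform 206 alone, an isoform annotated as a target of nonsense-mediated decay. The other 10 antisense reads began at 1 position in an exon of noncoding isoforms. Max antisense RNA thus rested on 2 positions, and its share of both strands was 17.2% (11.6 to 24.2).

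Mga encodes the largest protein of the network, with a T-box domain as well as the helix-loop-helix that binds MAX, and lies at chr2:119897228-119969581 on the plus strand. It had 1297 sense reads (1227.4 to 1369.6) or 2.68 RPKM (2.54 to 2.83), rank 1385 of the coding genes. Its reads also began at more positions than those of any other member, 144 with 259 distinct sequences. Its exons are the longest, with 15340 bases, while Mycn had 32 positions over 3295 bases. The highest position of Mga held 62 reads, 4.78% of the total. Over the other members with 50 sense reads the highest position held between 18% (Pvt1) and 76.5% (Mnt). Of the genes with at least 50 sense reads, 9.03% had over 50% of them at 1 position, and of the 6 members Mnt alone did.

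Mga reads fell on 16 of 24 merged exon blocks but not evenly. Block 18, of 1469 bases, held 419 reads (32.3%) at 32 positions, and the last block, of 5890 bases, held 448 (34.5%) at 51 positions. Coding sequence held 954 reads (73.55%, 71.1 to 75.9), against 65.5% of the bases of isoform 204, and the 3′ untranslated region 335. Exon junctions were crossed by 72 sense reads (5.55%, 4.37 to 6.94), against 19.9% of all nuclear sense reads and 5.46% of the 34-base windows of isoform 204. The 3 highest positions, with 62, 54 and 34 reads, are shown with the start position in capitals, the last pair of them from block 18.
Mga chr2:119916929-119916958 plus: caaggattcagaaaatagtctcagaaaacA
Mga chr2:119948234-119948263 plus: cttgatgagattgtggatgttgtctctggC
Mga chr2:119948166-119948195 plus: gtgctgctgacttcacagttttggatctgG
All 3 windows lie in coding sequence.

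The antisense reads of Mga lay elsewhere than its sense reads. Of 113 antisense reads, 85 were in exon block 2 at 8 positions and 12 in block 1, while block 1 had no sense read and block 2 only 53. The highest antisense position, 119902938, had 29 reads, and the next ones, at 119903560 and 119903103, had 24 and 18. Of the antisense reads 10 crossed the junction between blocks 1 and 2 and are thus the complement of spliced Mga. The antisense share of the whole gene was 8.01% (6.65 to 9.56), against 13.7% of all nuclear reads of 1 gene. A further 499 reads, of either strand, matched Mga and other genes equally well, and with all placements counted the antisense share of Mga was 29.5%. No share over all nuclear genes is at hand with all placements counted. The place of Mga below 13.7% thus holds for reads of 1 gene only.

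**Figure D2:**
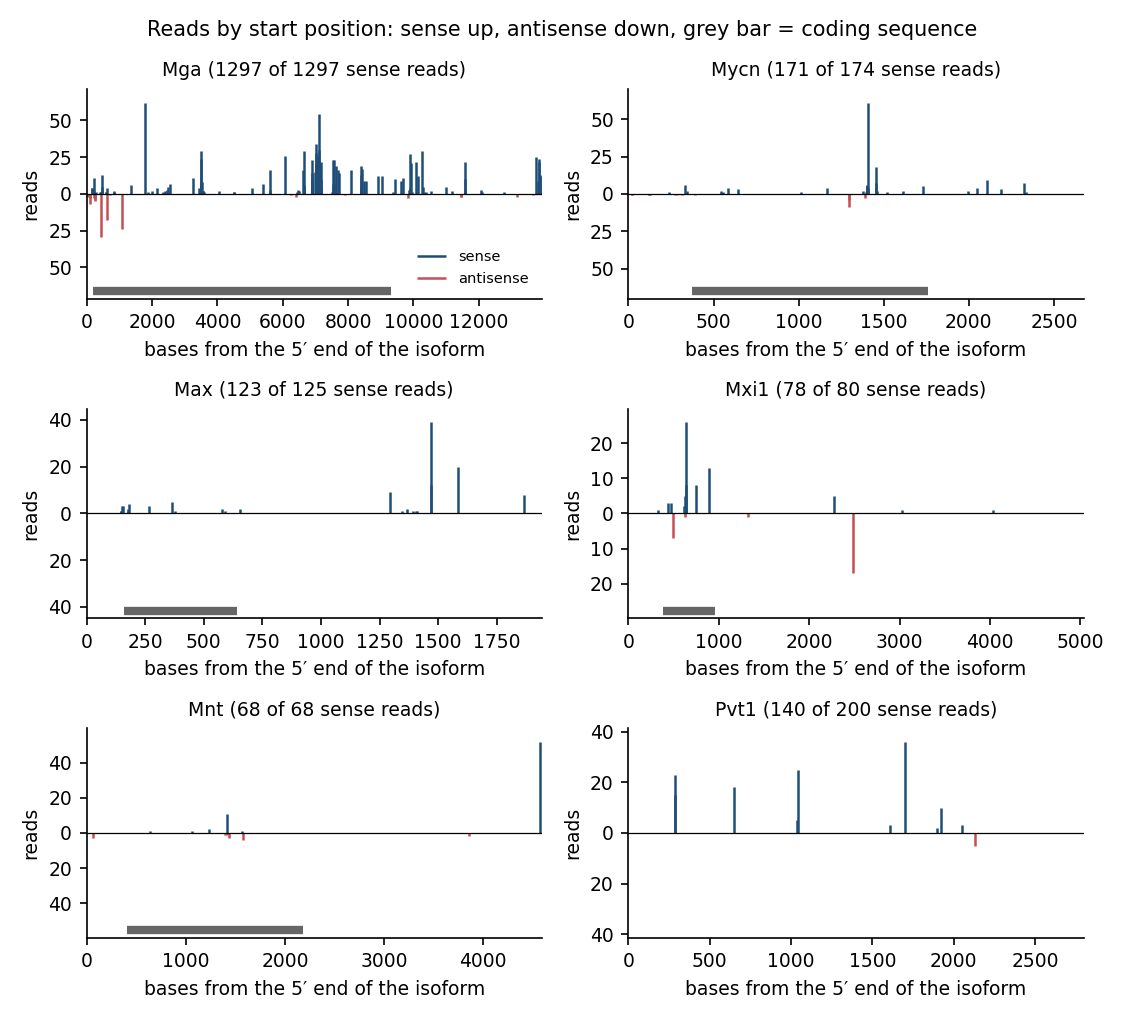
Reads of the 6 members with at least 50 sense reads by start position along 1 isoform each, in bases from its 5′ end; sense reads point up in blue, antisense reads down in red, and the grey bar is the coding sequence. Titles give the sense reads that lie on the drawn isoform. Mga is covered along its length with antisense reads near the 5′ end, the highest positions of Mycn and Mnt hold 61 and 52 reads, and most Max reads lie beyond the coding sequence.

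Mxi1, a repressor of the MXD type, lies at chr19:53310518-53375810 on the plus strand and had 80 sense reads (63.4 to 99.6) or 0.372 RPKM (0.295 to 0.463). Coding sequence held 49 of them (61.25%, 49.7 to 71.9). Of its sense reads 20 (25.0%, 15.99 to 35.9) crossed a junction, all of them beginning between 53370191 and 53370200. Of all nuclear sense reads 19.9% crossed a junction, and of the 34-base windows of isoform 202 3.24% do. At the highest position, 53370197, a spliced and an unspliced RNA could be told apart: 5 reads followed the junction shared by 7 coding isoforms and 21 ran into the sequence before the exon, which is annotated only in the retained-intron isoform 207. Both forms are shown, with the part that differs in capitals and the 10 shared bases in lower case.
Mxi1 spliced, chr19:53369635-53370197 plus, across a junction: CAAAGCCAAAGCACACATCAagaaacttga
Mxi1 unspliced, chr19:53370168-53370197 plus: GAATAAAACATCTTCATTTTagaaacttga
The 21 unspliced reads had 1 run of leading bases and 2 distinct sequences, and the 5 spliced reads had 2 runs and 3 distinct sequences. The neighbouring position 53370199 had 8 reads, all spliced. Without reads that match another gene within 1 further mismatch, 53 of the 80 were left (0.246 RPKM).

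Mnt, a widely expressed MAX partner that opposes MYC, lies at chr11:74830920-74845725 on the plus strand. It had 68 sense reads (52.8 to 86.2) or 0.466 RPKM (0.362 to 0.591) at only 6 positions. A single position held 52 of them (76.5%), 21 bases before the annotated 3′ end, and the next held 11. The window before the highest position holds AATAAA, the canonical polyadenylation signal, marked in capitals, while in the window of the next position the capital marks the start position.
Mnt chr11:74845675-74845704 plus: aaatataaaactgaAATAAAtctgcactga
Mnt chr11:74842324-74842353 plus: acgaccaggcgtccacctccacagcctccG
AATAAA was searched on the RNA strand of the 30 bases that end at the highest sense position of each gene with at least 50 sense reads. It was found in 166 of 6956 (2.39%). Of the other windows printed here, the unspliced one of Mxi1, with 21 reads at the highest position of that gene, also holds AATAAA. Without its highest position Mnt had 16 reads, all in coding sequence, and 0.1097 RPKM. All 52 reads at that position were 40 bases long, with 4 distinct sequences and 2 runs of leading bases.

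Mxd1, the founding MXD repressor, which rises when cells differentiate, was barely detected. It lies at chr6:86647042-86669161 on the minus strand and had 3 sense reads (0.619 to 8.77), 0.01345 RPKM (0.002775 to 0.0393), all at 1 position of the 3′ untranslated region. Its 2 antisense reads lay at 2 other positions.

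**Figure D3:**
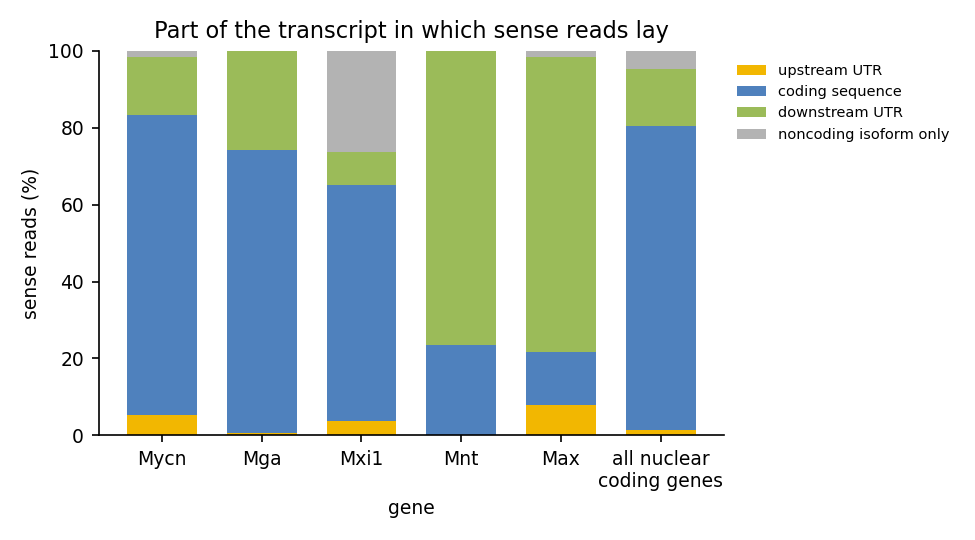
Share of sense reads (%) by part of the transcript for the 5 coding members with at least 50 sense reads and for all nuclear coding genes. Coding sequence holds 78.2% in Mycn and 73.55% in Mga, beside 79.1% in all coding genes, but 23.5% in Mnt and 13.6% in Max, where the downstream untranslated region holds 76.5% and 76.8%.

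Pvt1 spans 340111 bases at chr15:62037986-62378096 on the plus strand, starting 47611 bases after the end of Myc, and its 10 annotated isoforms are noncoding. It had 200 sense reads (173 to 230) or 0.907 RPKM (0.785 to 1.04), 11.1-fold the level of Myc per length (5.29 to 28.0). This ratio depended on the counting. In 36-base reads alone Pvt1 had 0.572 and Myc 0.412 RPKM, and over distinct sequences 1.016 and 0.407. In 40-base reads alone Pvt1 had 0.998 RPKM and Myc no read. The reads began at 33 positions with 45 distinct sequences, and at 15 positions when no mismatch was allowed. In that setting Pvt1 had 144 sense reads, or 0.653 RPKM, and Myc 0.0467 RPKM. Of its 21 merged exon blocks, block 15 of 1818 bases held 84 reads (42.0%), the last block of 2073 bases 57 (28.5%) at 20 positions, 53 of them with a mismatch, block 4 held 38 at 2 positions and block 12 held 18 at 1. The highest 2 positions, both in block 15 and with 36 and 25 reads, are shown with the start position in capitals.
Pvt1 chr15:62249844-62249873 plus: aaaaagaaggggctgtgatcatcaaatcgT
Pvt1 chr15:62249188-62249217 plus: cctatgaggtgatgaaaaaccatgcaactA
The 36 reads had 2 distinct sequences with the same 6 leading bases, and the 25 reads had 2 distinct sequences with 2 runs of leading bases.

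No sense read of Pvt1 crossed an exon junction, 0 of 200, which by the limit of 3 counts allows a share of up to 1.5%. Of the 34-base windows of isoform 203, on which 140 of the reads lay, 7.16% cross one. The limit takes the 200 reads as separate, but they began at 33 positions with 45 distinct sequences. It therefore cannot show that junction reads were fewer than the windows give. Max and Pvt1 were thus the 2 of 6 members without a read across a junction. Unspliced Pvt1 RNA outside the exons was not searched, so the balance of spliced and unspliced Pvt1 was not measured. A further 373 reads, of either strand, matched Pvt1 and other genes equally well and were left out. Counting all placements raised Pvt1 to 2.22 RPKM, the level most changed by shared reads among the members with 50 sense reads. Of the 34-base windows of Pvt1, 95.25% were found in this gene alone, the lowest share of the 9 members.

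The surroundings of Myc and Pvt1 held few reads. Of 12 other annotated genes within 500 kb of the span from Myc to Pvt1, none of them protein-coding, 2 had any read, as did 50.1% of all nuclear genes and 30.6% of those that are not protein-coding. These were Gm27782, a small RNA gene inside Pvt1, with 1 sense read, and H2afy3, a pseudogene on the other strand within Pvt1, with 5. Genes that overlap a member by position numbered 9, of which 4 had a read. Besides Gm27782 and H2afy3 these were AC133451.2, on the other strand within Mxi1, with 12 sense reads, and Gm44292, on the same strand within Mxd1, with 2 sense and 5 antisense reads. Gm47218 within Max, Gm27913, Gm27718 and Gm27957 within Pvt1, and Gm10197 opposite Mxi1 had none.

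As reported, antisense reads were the minority in every member with at least 50 reads. The members together had 246 antisense reads, 11.15% of both strands, at 65 positions. The share ran from 8.01% in Mga to 25.2% in Mxi1 (17.3 to 34.55), whose interval lay above the 13.7% of all nuclear genes. This order depended on the counting. Without the highest position of each strand Mxi1 had 15.6% and Mnt 38.5%. Over distinct sequences Mnt had 40.9%, Pvt1 23.7%, Mycn 22.35%, Mxi1 21.6%, Mga 11.3% and Max 9.80%. Of the 27 antisense reads of Mxi1, 17 began at position 53373255, in the 3′ untranslated region, and 7 at 53346461. Pvt1 (12.3%, 8.32 to 17.3), Mycn (13.0%, 8.67 to 18.5), Max and Mnt (17.1%, 9.66 to 27.0) had intervals that included 13.7%. No member had an antisense share above 50% by its interval, 0 of 6, while 15.7% of nuclear genes with at least 50 reads did. Across a junction lay 29 of the 246 antisense reads (11.8%), against 10.4% of all nuclear antisense reads.

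**Figure D4:**
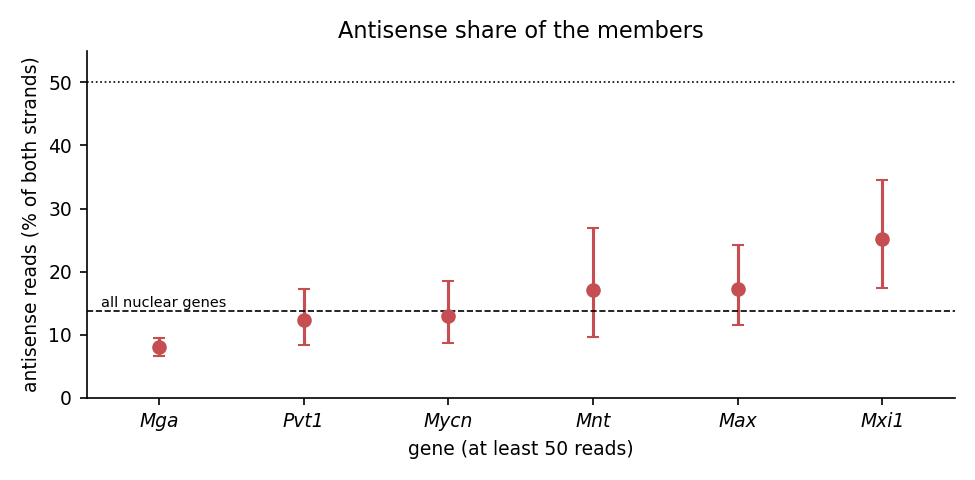
Antisense reads in percent of both strands for the 6 members with at least 50 reads; points are shares and bars 95% Clopper-Pearson intervals. Mga at 8.01% lies below the dashed line of all nuclear genes at 13.7% (29.5% with all placements counted), Mxi1 at 25.2% lies above it, and all 6 intervals lie below the dotted line at 50%.

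The members differed in which reads they came from. The table holds mainly 6252281 reads of 36 bases and 24772940 of 40 bases, and no label says what the lengths stand for. Mycn had 15.99 sense reads per 1000000 36-base reads and 2.46 per 1000000 40-base reads, a 6.495-fold excess in the shorter ones (4.68 to 9.08). Mga went the other way, with 15.0 and 48.3 per 1000000, a 3.21-fold excess in the 40-base reads (2.60 to 4.01). Mycn was the 1 member of 6 more than 2-fold higher in 36-base reads, as were 4.86% of genes with at least 50 sense reads. Mga and Mnt were the 2 more than 2-fold higher in 40-base reads, as were 49.5% of such genes. Mnt had a ratio of 5.47 (1.79 to 27.2) on 3 and 65 reads, and 52 of the 65 came from its highest position. Pvt1 was 1.75-fold higher in 40-base reads (1.14 to 2.77) and Max 1.74-fold higher in 36-base reads (1.11 to 2.67). The interval of Mxi1 included 1 (0.994, 0.567 to 1.84). A ratio of 1 is that of all searched reads, of which 19.83% had 36 bases and 78.57% had 40. Of the nuclear sense reads of these 2 lengths only 11.43% had 36 bases, so nuclear genes as a whole lay above 1. The share with 40 bases was 37.9% in Mycn, 69.5% in Max, 79.75% in Mxi1, 87.4% in Pvt1, 92.7% in Mga and 95.6% in Mnt. No ratio above is one against nuclear genes, so a ratio above 1 is not in itself a shift from them.

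The order of the members therefore depended on read length. In 36-base reads alone Mycn was highest, at 4.85 RPKM, above Max at 1.42, Mga at 0.980, Pvt1 at 0.572 and Myc at 0.412. Mxi1 at 0.375, Mycl at 0.198, Mnt at 0.104 and Mxd1 at 0.0226 followed, so Mxi1 and Mnt lay below Myc there. In 40-base reads alone Mga was highest, at 3.15 RPKM, above Pvt1 at 0.998, Max at 0.819 and Mycn at 0.747, and Myc and Mycl had no read. The order of Mycn and Mga thus reversed between the lengths, and it also reversed when each distinct sequence was counted as 1 (3.16 RPKM for Mycn and 2.67 for Mga). Of the 61 reads at the highest Mycn position 48 had 36 bases and 13 had 40. Without that position Mycn had 1.09 RPKM over all lengths, with the reads that began at adjacent bases still counted.

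**Figure D5:**
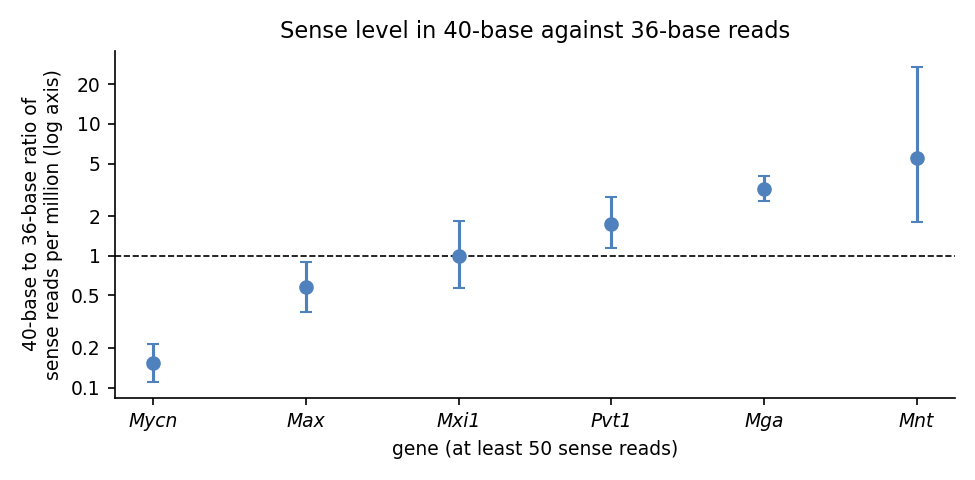
Ratio of sense reads per 1000000 40-base reads to those per 1000000 36-base reads on a log axis for the 6 members with at least 50 sense reads, with 95% intervals. Mycn at 0.154 and Max at 0.576 lie below 1, the interval of Mxi1 includes 1, and Pvt1, Mga and Mnt lie above it, at 1.75, 3.21 and 5.47. Nuclear sense reads as a whole also lie above 1, since 11.43% of those of the 2 lengths had 36 bases.

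Reads with bases unlike the reference made up 10.4% (Mga) to 17.5% (Mxi1) of the sense reads of the coding members with at least 50, and 56 of 200 (28.0%) in Pvt1. Of these 56, 53 lay in the last exon block of Pvt1, where they were 53 of 57 reads. Positions at which at least 3 reads and over 50% of the covering reads carried the same other base numbered 19, 8 in Mga, 6 in Pvt1, 2 each in Mycn and Mxi1 and 1 in Myc. In Mga they included G9930A in 21 of 21 reads, G9692A in 11 of 11 and A9611G in 9 of 9, all in the 3′ untranslated region, with positions counted from 1 at the 5′ end of isoform 204. In Pvt1 isoform 202, C2144T and A2148C stood together in 10 of 10 reads, and C2200T in 9 of 9 reads from 3 start positions. Each of those 3 Mga substitutions came from 1 start position, at 9932, 9693 and 9627 in the order given. G9930A and G9692A thus lay close to the leading bases left out, and A9611G lay further into the reads. The reference is that of C57BL/6J, and the wild-type cells carry M. castaneus and 129 genomes. The part of strain in these differences was not tested, nor was that of the place within the read.

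Genes of the wider pathway were counted by role, and no list was tested against other genes. For this list and those below, 29.1% of all nuclear coding genes reached 50 sense reads, and their median was 0.0856 RPKM. The remaining genes of the network itself were mostly low, and of these 7, 1 reached 50 sense reads: Mlxip, a glucose-responsive partner of Mlx, had 116, Mxd4 23, Mlxipl 5, Mxd3 3, Bmyc 2, Mlx 1 and Mycs 0. Mxd3 had 22 antisense reads beside its 3 sense reads. The list's median was 0.0402 RPKM.

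Subunits of PRC1.6, the complex that holds Mga and Max, reached 50 sense reads in 8 of 12, with a median of 1.21 RPKM. Wdr5, which scaffolds several chromatin complexes, had 1958, the deacetylase Hdac2 504, Cbx3, which binds methylated H3K9, 335 and E2f6, which brings the complex to DNA, 266. The corepressors used by MXD proteins and MNT reached it in 9 of 12, with a median of 1.66 RPKM, led by Arid4b with 5947, Suds3 with 3271, Arid4a with 3184 and Rbbp7 with 1234. All 4 encode subunits of the SIN3 deacetylase complex.

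MYC cofactors reached 50 sense reads in 12 of 14 (median 1.153 RPKM), led by Wdr5, by the helicase Ruvbl2 with 1262 and by Bptf, a subunit of the NURF remodeller, with 607. Regulators of MYC protein stability reached it in 7 of 12 (0.586 RPKM), led by the ubiquitin ligase Huwe1 with 4600, the deubiquitinase Usp7 with 1169, Fbxw7, which marks MYC for degradation, with 897 and Usp28, which opposes it, with 837. Proteins that bind MYC mRNA or act upstream of it did so in 9 of 10 (1.07 RPKM), led by Cnbp with 4356, Ctcf with 1187, Fubp1 with 591 and Lin28a with 344. Wdr5, Hdac1 and Hdac2 stand in more than 1 list.

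Genes commonly activated by MYC reached 50 sense reads in 20 of 24, with a median of 1.355 RPKM, and those commonly repressed in 4 of 7, with a median of 1.16 RPKM. The activated genes were led by Odc1, the rate-limiting enzyme of polyamine synthesis, with 18740, by the nucleolar proteins Ncl with 8181 and Npm1 with 4010, and by Pa2g4 with 1448. Among the repressed genes Ndrg1 had 1595 sense reads, the cell cycle inhibitor Cdkn1a 204, Ndrg2 124, Gadd45a 80, Cdkn1b 13, Cdkn2b 3 and Gata6 0. These are counts in 1 table and say nothing of activation or repression.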

How the data were processed

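The deposited table pairs every distinct sequence with the number of its reads, as raw counts without scaling and without a header, for sequences of 12 to 40 bases. The authors' aligner and read filters are not given in the sources used here. The build mm9 is named in the submitters' processing notes, but the table has no coordinates. With no column tied to any of the 7 samples, it was treated as 1 pool, and no test between groups was made.

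The leading 6 bases were left out, and reads of at least 26 bases were aligned by bwa 0.7.19 to the transcripts of GENCODE M21 (GRCm38), allowing 2 mismatches, no gaps and up to 1000 placements. Reads whose best sense placements fell on only 1 gene, or whose best antisense placements did, were given to that gene, the sense gene being preferred where genes overlap on opposite strands. Coordinates count from 1. RPKM was computed from the deposited counts over merged exons and 1000000 searched reads, and intervals (95%) with scipy 1.17.1. Levels over distinct sequences were taken per 1000000 distinct sequences searched, and those of 1 read length per 1000000 reads of that length. A count of 0 was given a limit of 3 counts. The assignment was tested on simulated reads of annotated nuclear transcripts alone. Such reads cannot show how reads from elsewhere in the genome were assigned.

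All 9 members are named, as are the 4 genes of a list with most sense reads (every gene where a list has 7 or fewer), the genes that overlap a member, and genes with a read within 500 kb of Myc to Pvt1. Some items that this rule takes are not reported here. The members were taken from a named gene family, but they and the lists were chosen with earlier results of these data known. Windows beyond the highest position of a member were chosen for printing after their values were seen. Alternatives changed the counting of copies, the mismatches, the read length, the uniqueness, the leading bases, the highest position and the minimum of 50 reads.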

Additional observations from a re-analysis of the deposited data

How the results depend on the processing

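The number of members with at least 50 sense reads, 6, depended on how copies were counted: it was 2 with each distinct sequence counted as 1, 1 with each start position counted as 1, and 1 with each combination of start position and leading 6 bases, an alternative chosen after seeing the data. Over all nuclear genes the count fell from 6956 to 3244, 1484 and 2311 in the same settings. It was 2 members and 1535 nuclear genes in 36-base reads alone. With a minimum of 200 reads it was 2 members, for which no count over all nuclear genes is at hand. Without the highest position of each gene it was 5 members, with Mnt lost, and 5524 nuclear genes. The median level of the members, 0.466 RPKM, was 0.671 over distinct sequences and 0.251 without the highest positions. No RPKM was computed when start positions or their combinations were counted. No member with enough reads for a call (50, or 20 and 200 in other settings) was called above 50% antisense by its interval under any of the 14 alternatives. Shares above 50% without that were 70.0% for Mnt in 36-base reads alone, and others for Mycl and Mxd1, which had under 50 reads. Of 454 alternative values of single genes, 310 lay inside the 95% interval of the reported value and 144 outside it. No paired analysis was possible because the table has no sample column. At this depth Mycl, with 6 sense reads, could not be ordered against Myc or Mxd1, with 7 and 3, and none of these was resolved by strand.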
